A study of Homo sapiens with 4 samples.

Results

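C-type lectin receptors are surface proteins of myeloid and other cells that share the C-type lectin-like domain, a protein fold first described in sugar-binding proteins that need calcium. RNA was measured for 10 of them in U937, an established human myeloid line from a histiocytic lymphoma. The genes are CD209, MRC1, CLEC10A, CLEC7A, CLEC4E, CLEC4D, CLEC5A, CLEC4A, CLEC12A and CLEC2B. They were chosen by symbol, and all 10 were found among the 60662 genes and transcripts of the deposited count table. Cells received PMA (phorbol 12-myristate 13-acetate), which switches on protein kinase C, at 10 nM for 72 h, or were kept for 72 h without it. Per the labels, PMA served to turn the cells into macrophage-like cells. There were 2 libraries with PMA and 2 untreated libraries, 1 of each from each of 2 lots of U937 cells. All 4 libraries come from this single tumour line. The labels do not say whether the lots were separate cultures, and p-values then measure only how far these libraries differ, which may be technical.

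Some C-type lectin receptors take up sugar-bearing ligands, while others signal. CLEC7A signals through a tyrosine motif in its own tail, and CLEC4E, CLEC4D and CLEC5A signal through the partner chains FCER1G and TYROBP, which lead to the kinase SYK. CLEC4A and CLEC12A carry an inhibitory motif that recruits the phosphatases PTPN6 and PTPN11. On macrophages and dendritic cells the family is known for sensing fungi, mycobacteria, viruses and dying cells.

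In lots 1 and 2, total counts were 35739833 and 50822971 with PMA and 54915928 and 41308603 untreated. Levels are normalised CPM, the counts scaled to a common library size with TMM factors, and log2 fold changes are PMA over untreated with their standard error. A library with 0 counts allows a level of up to 3 counts, or 0.0475 to 0.0921 CPM, by counting error only. A fold change against 2 untreated libraries at 0 is therefore a lower bound for counting error alone. The untreated libraries were set at 3 counts each for it. The deposited counts are estimates, so the bound fails for a gene whose untreated reads the estimation missed. Whether this happened for any gene was not tested. In these bulk samples, fewer cells that express a gene and less of its RNA per cell cannot be told apart. Of 6 macrophage surface markers, 4 rose with PMA by edgeR's test, namely ITGAX, CD14, CD163 and ITGAM, against 4.29% of all genes tested. All 6 were higher in both PMA libraries than in both untreated libraries, against 31% of genes tested. CSF1R did not pass, at 667 and 332 CPM with PMA and 0 and 1.74 CPM untreated. FCGR1A, at 33.2 and 24.7 CPM with PMA and 16.2 and 19.5 CPM untreated, did not pass either. All 6 myeloid markers (CD33, LYZ, SPI1, CEBPA, PTPRC and CD68) were at 28.9 CPM or more in every library, and CD68 rose. LYZ differed between lots, at 211 and 126 CPM with PMA and 136 and 905 CPM untreated.

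Of the 10 receptors, 4 rose with PMA and 0 fell by edgeR's quasi-likelihood test at an adjusted p under 0.05. Over all 16451 genes tested, 4.29% were called higher and 2.02% lower. CD209, CLEC7A, CLEC10A and CLEC5A rose. CLEC4E, CLEC12A and CLEC2B were tested and did not pass. CLEC4D, CLEC4A and MRC1 had too few counts to be tested. Without regard to the test, 5 of the 10 were higher in both PMA libraries than in both untreated libraries, and 2 were lower in both. Over all genes tested, 31% were higher and 29.4% were lower in this sense. The median log2 fold change of the 7 tested receptors was 9.58, or 5.14 with genes at 0 in untreated cells set at their lower bound, against 0.00 for all genes tested. The filter on low counts keeps genes that are high in a single group, so this median does not describe all 10.

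**Figure D1:**
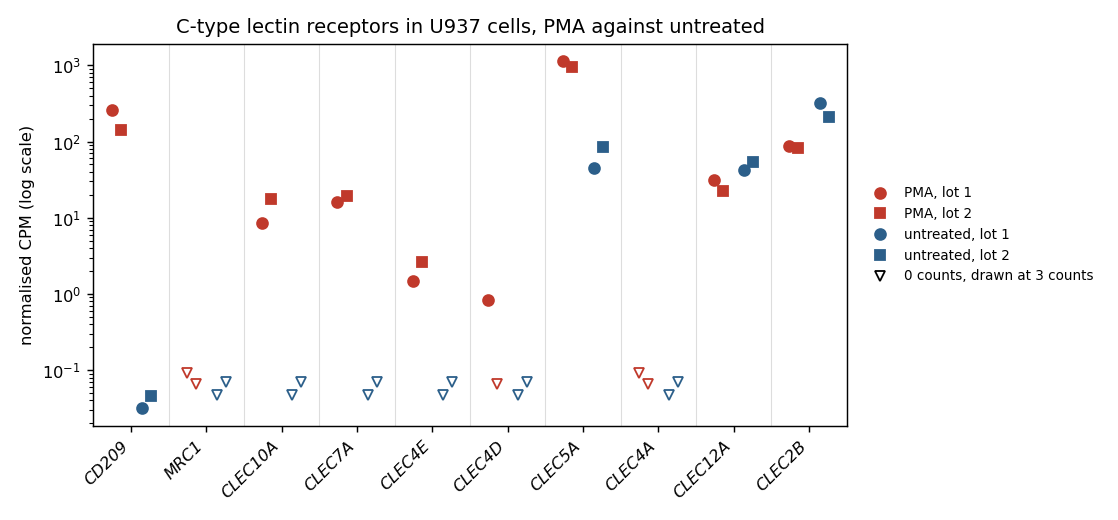
Normalised CPM (log axis) of each of the 10 receptors in each library, with PMA left and untreated right for each gene, circles for lot 1 and squares for lot 2, and open triangles for 0 counts drawn at the floor of 3 counts. CD209, CLEC10A, CLEC7A, CLEC4E and CLEC5A are higher in both PMA libraries, CLEC12A and CLEC2B are lower in both, and MRC1 and CLEC4A are at 0 in all 4.

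Among the endocytic receptors, CD209 showed the clearest difference. CD209 (DC-SIGN, ENSG00000090659.18) binds mannose- and fucose-bearing glycans and is a classical marker of monocyte-derived dendritic cells. It had 8442 and 6619 counts in the PMA libraries, and 2 counts in each untreated library. This was 259 and 143 CPM with PMA (201 ± 81.9, SD, n = 2), against 0.0316 and 0.0464 CPM untreated (0.0390 ± 0.0104, SD, n = 2). The log2 fold change was 12.27 ± 0.69 (adjusted p = 0.0148). The ratio of the summed counts, scaled by library size, was 5080 with a 95% counting interval of 1984 to 18647, which covers counting error only. The difference was 13.00 in lot 1 and 11.59 in lot 2 on the log2 scale. The gap between groups far exceeds the spread within either, although PMA lot 1 was above PMA lot 2. Its neighbour and close relative CLEC4M, with which reads could be shared, had 9 and 1 counts with PMA and 10 and 0 untreated.

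CLEC10A (ENSG00000132514.13), the macrophage galactose-type lectin that binds terminal galactose and N-acetylgalactosamine, had 278 and 811 counts with PMA and 0 in both untreated libraries. Its level was 8.53 and 17.5 CPM with PMA, at least 223-fold higher than untreated (adjusted p = 0.0272). By lot, the bound was 179.7-fold in lot 1 and 252-fold in lot 2. Every PMA library was above every untreated one, with the higher value in lot 2, the reverse of CD209. MRC1 (ENSG00000260314.3), the mannose receptor of tissue macrophages, was listed at 0 in all 4 libraries. A listed 0 can be a failed estimate, and the antisense entry that overlaps MRC1 was also at 0. Its relative MRC2, a collagen uptake receptor, was abundant in every library, at 354 and 538 CPM with PMA and 462 and 262 CPM untreated (0.30 ± 0.42, adjusted p = 0.708). The 2 lots differed in direction for MRC2, with log2 ratios of −0.38 in lot 1 and 1.04 in lot 2.

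CLEC7A (dectin-1, ENSG00000172243.18), the receptor for fungal beta-glucan, had 518 and 890 counts with PMA and 0 in both untreated libraries. Its level was 15.9 and 19.3 CPM with PMA (17.6 ± 2.37, SD, n = 2), at least 300.4-fold higher than untreated (adjusted p = 0.0224). The bound was 335-fold in lot 1 and 277-fold in lot 2. Each bound depends on the floor of the untreated library of its lot, so these bounds do not show whether the lots agree in fold change.

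CLEC5A (MDL-1, ENSG00000258227.7), which signals through TYROBP and is known as a receptor for dengue virus, was the most abundant receptor with PMA and was present without it. It was at 1128 and 963 CPM with PMA (1046 ± 117, SD, n = 2), against 44.6 and 83.7 CPM untreated (64.1 ± 27.6, SD, n = 2). The log2 fold change was 4.03 ± 0.45, or 16.3-fold (adjusted p = 0.0236), with 4.66 in lot 1 and 3.52 in lot 2. The groups did not overlap, and the ratio between lots was larger in the untreated libraries than in the PMA libraries. CLEC5A lies within MGAM, which is annotated on the opposite strand. MGAM was at 39.7 and 18.5 CPM with PMA and 2.42 and 0 CPM untreated (adjusted p = 0.210), and the sources used here do not state whether counting used strand.

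The receptors that pair with FCER1G had low levels. CLEC4E (Mincle, ENSG00000166523.8), which binds mycobacterial cord factor and a protein released by dying cells, had 48 and 123 counts with PMA and 0 in both untreated libraries. This was 1.47 and 2.66 CPM, at least 35.3-fold higher than untreated, with 31.0-fold in lot 1 and 38.3-fold in lot 2. It did not pass edgeR's test (adjusted p = 0.0536), and passed with DESeq2 (0.000268) and without untreated replicate 1 (0.0433), over a range of 0.000268 to 0.238. In the authors' deposited table it was called, with a q-value of 0.00391. CLEC4D (MCL, ENSG00000166527.8), its partner in cord factor recognition, had 27 counts in PMA lot 1 and 0 in the other 3 libraries, including PMA lot 2. The 0.829 CPM in that single library is at least 17.5-fold above untreated lot 1. A processed pseudogene that overlaps CLEC4D, SUPT4H1P2, had 6 counts in the same library.

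Of the inhibitory receptors, CLEC4A (DCIR, ENSG00000111729.14) was listed at 0 in all 4 libraries. CLEC12A (MICL, ENSG00000172322.14), which recognises uric acid crystals and marks myeloid progenitors and leukaemia cells, was at 31.3 and 22.5 CPM with PMA (26.9 ± 6.19, SD, n = 2) and 41.7 and 53.5 CPM untreated (47.6 ± 8.38, SD, n = 2). Both PMA libraries were below both untreated libraries. The log2 fold change of −0.82 ± 0.39 did not pass the test (adjusted p = 0.257), with −0.41 in lot 1 and −1.25 in lot 2. CLEC12A-AS1, which overlaps it on the other strand, was at 2.88 and 1.45 CPM with PMA and 16.9 and 6.88 CPM untreated (adjusted p = 0.111). Reads of the overlapping genes cannot be told apart without strand.

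CLEC2B (AICL, ENSG00000110852.4) is a ligand rather than a pathogen receptor, and is bound by the natural killer receptor NKp80, the product of KLRF1. It was at 88.1 and 83.3 CPM with PMA (85.7 ± 3.37, SD, n = 2) and 325 and 208 CPM untreated (266 ± 82.3, SD, n = 2). Both PMA libraries were below both untreated libraries, and the PMA libraries lay close together. The log2 fold change was −1.64 ± 0.36, with −1.88 in lot 1 and −1.32 in lot 2. The adjusted p of 0.0620 missed the threshold. CLEC2B passed in 5 of 10 alternatives, including upper-quartile factors (0.0492), DESeq2 (0.000422) and leaving out untreated replicates 1 and 2 in turn (0.0410 and 0.0300). The largest value over the alternatives was 0.372. In the authors' deposited table its q-value was 0.194, and that table called 5 of the 10 receptors, namely CD209, CLEC7A, CLEC10A, CLEC5A and CLEC4E. The authors called 2.22% of all entries.

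**Figure D2:**
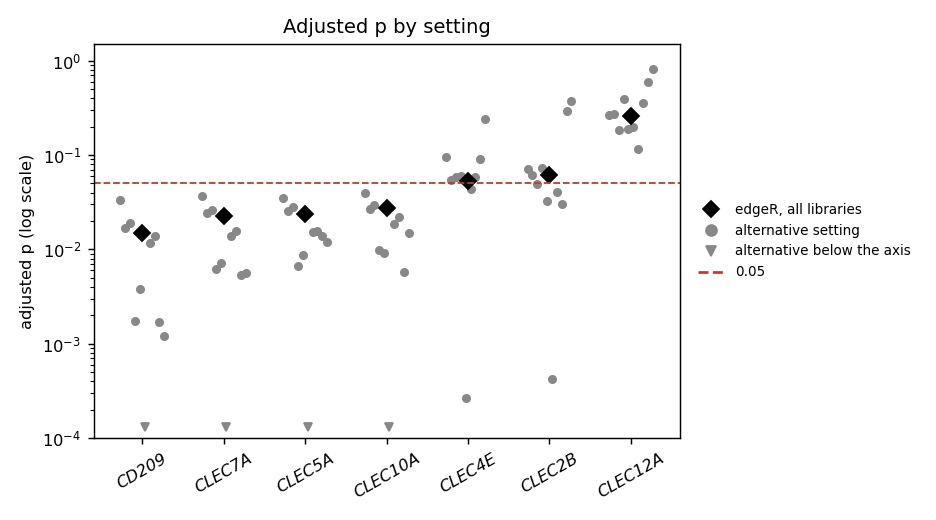
Adjusted p (log axis) of the 7 tested receptors, with black diamonds for edgeR's quasi-likelihood test on all libraries, grey circles for alternative settings, grey triangles for alternatives below the axis and a dashed line at 0.05. CD209, CLEC7A, CLEC5A and CLEC10A are below the line in all 10 alternatives drawn, CLEC4E and CLEC2B fall on both sides, and CLEC12A is above it in all 10.

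Levels were compared between receptors as CPM per kb of the longest transcript in GENCODE release 29, which may not be the authors' annotation. With PMA, CLEC5A came first, at 321 and 274 CPM per kb. CD209 (60.5 and 33.4 CPM per kb) and CLEC2B (51.8 and 49.0 CPM per kb) followed with overlapping values. CLEC12A was next at 18.6 and 13.4 CPM per kb. CLEC10A (4.74 and 9.75 CPM per kb) and CLEC7A (4.27 and 5.17 CPM per kb) overlapped, and CLEC4E was at 0.682 and 1.23 CPM per kb. In untreated cells the order was different. CLEC2B led at 191 and 122 CPM per kb, ahead of CLEC12A at 24.8 and 31.9 CPM per kb and CLEC5A at 12.7 and 23.8 CPM per kb. The libraries of CLEC12A and CLEC5A did not overlap in untreated cells, although their gap was small beside the spread between lots.

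CLEC5A held 69.5% and 71.0% of the summed CPM per kb of the 10 receptors in the PMA libraries, against 5.56% and 13.4% in the untreated libraries. CD209 held 13.1% and 8.66% with PMA, against 0.00323% and 0.00608% untreated. CLEC2B held 11.2% and 12.7% with PMA and 83.6% and 68.7% untreated. The summed CPM of the 10 receptors was 1534 and 1251.5 with PMA and 411 and 345 untreated.

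**Figure D3:**
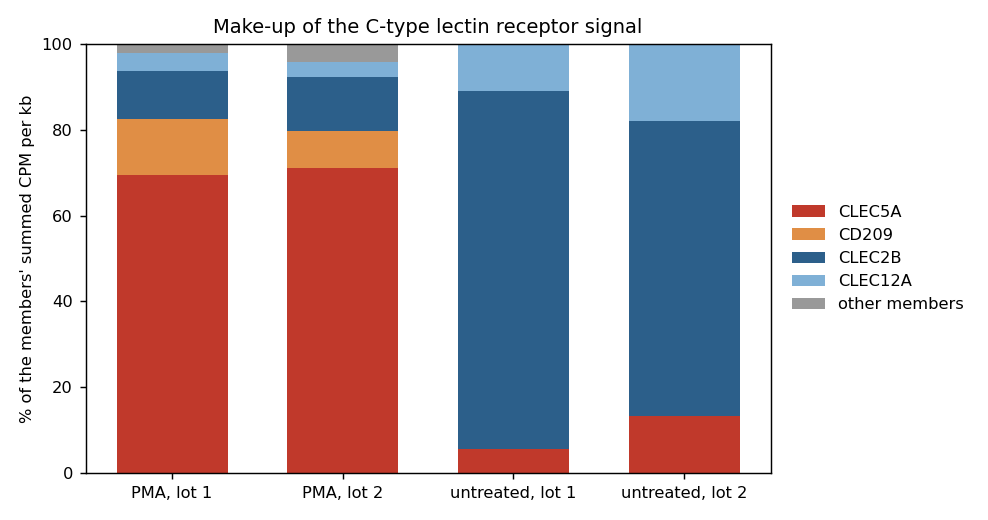
Share (%) of each receptor in the summed CPM per kb of the 10 receptors, 1 bar per library, with PMA on the left and untreated on the right. CLEC5A takes 69.5% and 71.0% of the bar in the PMA libraries, and CLEC2B takes 83.6% and 68.7% in the untreated libraries.

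Promoters of 4 of the 10 receptors were found in the RefSeq table of build GRCh38.p14, each with 250 bases before and 50 after the gene's start. The windows of CD209 and CLEC5A are shown because both genes rose to the highest CPM of the receptors with PMA, and that of CLEC12A because it was expressed in both groups and did not pass the test. Capitals mark matches, on either strand, to GAGGAAG (a form of the PU.1 site), AGGAAGT (a form of the ETS family site), TTGCNNAA (C/EBP) and TGANTCA (AP-1). A match to AGGAAGT can overlap one to GAGGAAG by all but the outer bases, and AGGAAGT was added after the windows had been read. Of 35116 promoter windows, 13.6% hold GAGGAAG, 8.24% AGGAAGT, 10.5% TTGCNNAA and 7.71% TGANTCA. The windows follow the starts that RefSeq gives, and they are chr19:7747485-7747784 (minus strand) for CD209, chr7:141946925-141947224 (minus strand) for CLEC5A and chr12:9971159-9971458 (plus strand) for CLEC12A.
CD209: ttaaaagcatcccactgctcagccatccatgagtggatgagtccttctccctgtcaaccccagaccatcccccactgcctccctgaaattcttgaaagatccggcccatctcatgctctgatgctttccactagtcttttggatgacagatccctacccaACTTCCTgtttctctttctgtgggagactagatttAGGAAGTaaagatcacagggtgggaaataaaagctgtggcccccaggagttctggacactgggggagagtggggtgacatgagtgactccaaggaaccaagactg
CLEC5A: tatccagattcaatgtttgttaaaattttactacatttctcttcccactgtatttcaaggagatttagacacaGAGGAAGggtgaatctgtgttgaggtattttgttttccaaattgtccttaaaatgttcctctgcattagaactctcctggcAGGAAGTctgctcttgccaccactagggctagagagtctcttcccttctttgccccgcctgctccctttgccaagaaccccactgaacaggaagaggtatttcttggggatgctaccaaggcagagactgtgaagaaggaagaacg
CLEC12A: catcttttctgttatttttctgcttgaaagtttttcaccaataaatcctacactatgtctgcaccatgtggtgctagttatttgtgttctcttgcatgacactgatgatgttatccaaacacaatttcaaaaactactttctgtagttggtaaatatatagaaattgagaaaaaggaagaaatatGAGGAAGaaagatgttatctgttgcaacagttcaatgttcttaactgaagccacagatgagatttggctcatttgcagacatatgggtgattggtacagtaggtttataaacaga

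CD209 had 2 matches to AGGAAGT, at −90 to −84 on the other strand and at −55 to −49 from the start. CLEC5A had GAGGAAG at −177 to −171 and AGGAAGT at −96 to −90. CLEC12A had GAGGAAG at −65 to −59. The window of CLEC4E, the remaining one, had AGGAAGT at −122 to −116 and at −33 to −27 and TTGCNNAA at −107 to −100, all on the other strand. TGANTCA was found in none of these 4 windows. These matches are descriptions of letters, and no binding was measured.

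CLEC7A, CLEC12A and CLEC2B lie in a cluster of lectin genes on chromosome 12, and the genes from KLRB1 to OLR1 were taken in RefSeq order, a set chosen after the values had been seen. Of these 15 protein-coding genes, 12 were tested, 2 rose and 1 fell. The shares of all genes tested were 4.29% called higher and 2.02% called lower. The genes that rose, CLEC7A and OLR1, are neighbours at one end. OLR1 (LOX-1), the receptor for oxidised low-density lipoprotein, was at 35.0 and 42.9 CPM with PMA and 0 in both untreated libraries (at least 666-fold higher, adjusted p = 0.0189). Both genes had no count in untreated cells and 518 or more in each PMA library. CLEC1A and CLEC9A, which precede CLEC7A in this order, were at 0 in all 4 libraries.

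The gene that fell was CLEC2A, the skin-associated lectin next to CLEC2B. It was at 5.00 and 2.18 CPM with PMA and 47.2 and 45.8 CPM untreated (−3.70 ± 0.57, adjusted p = 0.0353). Without PMA replicate 2 its adjusted p was 0.128, and without PMA replicate 1 its log2 fold change was −4.47, while 8.30e-09 with DESeq2 was the lowest adjusted p. CLEC12B, an inhibitory relative of CLEC12A, was at 1.10 and 0.995 CPM with PMA and 6.30 and 8.34 CPM untreated, and did not pass the test (−2.80 ± 0.63, adjusted p = 0.0653). CLECL1 was at 3.53 and 7.48 CPM with PMA and 40.6 and 35.1 CPM untreated, and also did not pass (adjusted p = 0.0512), although it passed in 6 of 10 alternatives (9.53e-06 to 0.223). Both PMA libraries were below both untreated libraries for these 3 genes, which also held for 29.4% of all genes tested. KLRF1, whose product binds CLEC2B, was at 0.430 and 1.38 CPM with PMA and 1.44 and 1.16 CPM untreated (adjusted p = 0.798). CLEC2D was at 10.7 and 12.4 CPM with PMA and 15.4 and 13.0 CPM untreated, and the activation marker CD69 was at 24.5 and 41.2 CPM with PMA and 36.2 and 21.2 CPM untreated (adjusted p = 0.722 for CLEC2D and 0.842 for CD69).

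**Figure D4:**
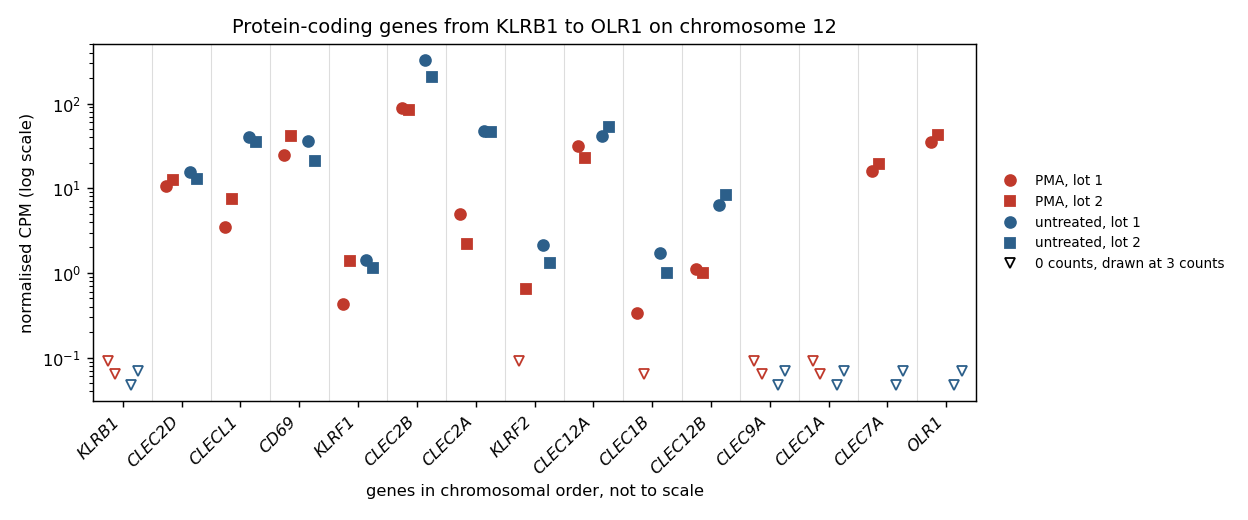
Normalised CPM (log axis) of the 15 protein-coding genes from KLRB1 to OLR1 in chromosomal order, not to scale, with PMA left and untreated right for each gene and open triangles for 0 counts drawn at 3 counts. CLEC7A and OLR1 at the right end have counts in the PMA libraries alone, and CLECL1, CLEC2D, CLEC2B, CLEC2A, KLRF2, CLEC12A, CLEC1B and CLEC12B are lower in both PMA libraries than in both untreated libraries.

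CLEC4A, CLEC4D and CLEC4E belong to a second cluster on chromosome 12. Their relative CLEC6A (dectin-2), which lies before CLEC4D, was at 0 in all 4 libraries, and of the 6 protein-coding genes from CLEC4A to CLEC4E, 2 were tested and 0 were called. CD209 lies on chromosome 19 among FCER2, CLEC4G and CLEC4M. FCER2 (CD23), the low-affinity receptor for immunoglobulin E and itself a C-type lectin, was at 426 and 311 CPM with PMA and 84.8 and 116 CPM untreated (1.87 ± 0.35, adjusted p = 0.0499). The call of FCER2 was lost in 6 of 10 alternatives, among them a block for the lot (0.0702) and leaving out untreated replicate 1 (0.0504), PMA replicate 1 (0.285) or PMA replicate 2 (0.143), and 0.000112 was the lowest value. CLEC4G had 13 and 0 counts with PMA and 14 and 0 untreated.

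In a list of 45 other genes with a C-type lectin-like domain, 17 were at 0 in all 4 libraries, 24 were tested, 3 rose and 1 fell. The shares of all genes tested were 4.29% called higher and 2.02% called lower. The median log2 fold change of the 24 was −0.41, against 0.00 for all genes tested. Besides OLR1, FCER2 and CLEC2A, the call was THBD (thrombomodulin), an anticoagulant surface protein. THBD was at 159.6 and 144 CPM with PMA, against 13.5 and 10.9 CPM untreated (3.63 ± 0.35, adjusted p = 0.0211). Of the others, CD93 had the highest mean CPM, and was at 925 and 524 CPM with PMA and 547 and 275 CPM untreated (adjusted p = 0.361). CLEC11A, a secreted growth factor of bone marrow, was at 35.3 and 69.1 CPM with PMA and 59.0 and 176 CPM untreated (adjusted p = 0.332). Groups overlapped for both.

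Of 19 genes for adaptors, kinases, phosphatases and effectors of these receptors, 3 rose and 0 fell. The shares of all genes tested were 4.29% called higher and 2.02% called lower. The median log2 fold change of the 19 was 0.36, against 0.00 for all genes tested. FCER1G, the partner chain of CLEC4E and CLEC4D, was at 1360.4 and 1782.5 CPM with PMA and 41.2 and 137 CPM untreated (4.14 ± 0.69, adjusted p = 0.0389). TYROBP (DAP12), the partner of CLEC5A, was at 625 and 1052 CPM with PMA and 6.82 and 55.9 CPM untreated. Its log2 fold change of 4.74 ± 1.11 did not pass (adjusted p = 0.0704), while it passed in 7 of 10 alternatives (1.64e-06 to 0.0799 over all 10), the lot as a block among them (0.0425). It was 3.84 without untreated replicate 1 and 6.94 without untreated replicate 2. The SRC-family kinase FGR was at 610.4 and 534 CPM with PMA and 14.5 and 41.7 CPM untreated (4.35 ± 0.63, adjusted p = 0.0310). Without untreated replicates 1 and 2 in turn, the log2 fold change was 3.46 and 5.25 for FCER1G and 3.72 and 5.30 for FGR. MALT1, the protease of the CARD9 complex, was at 215 and 271 CPM with PMA and 27.4 and 13.4 CPM untreated (3.57 ± 0.49, adjusted p = 0.0285). Without PMA replicate 2 its adjusted p was 0.0513, and with DESeq2 it was 5.90e-12.

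SYK itself was at 225 and 134 CPM with PMA and 194 and 163 CPM untreated (0.01 ± 0.37, adjusted p = 0.992), and the sign of this near-zero value changed with the setting, upper-quartile factors included (−0.16). CARD9, the adaptor downstream of SYK, was at 18.0 and 28.5 CPM with PMA and 17.4 and 46.3 CPM untreated (adjusted p = 0.691). For both genes the groups overlapped and the lots moved in opposite directions. PTPN6 (SHP-1), which binds the inhibitory receptors, was at 549 and 616 CPM with PMA and 242 and 276 CPM untreated. Its log2 fold change of 1.17 ± 0.29 did not pass the test (adjusted p = 0.0760). The chain HCST was at 192 and 318 CPM with PMA and 56.5 and 151 CPM untreated (adjusted p = 0.233). The kinases BTK and PRKCD were at 131 to 314 CPM over all libraries and were not called.

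**Figure D5:**
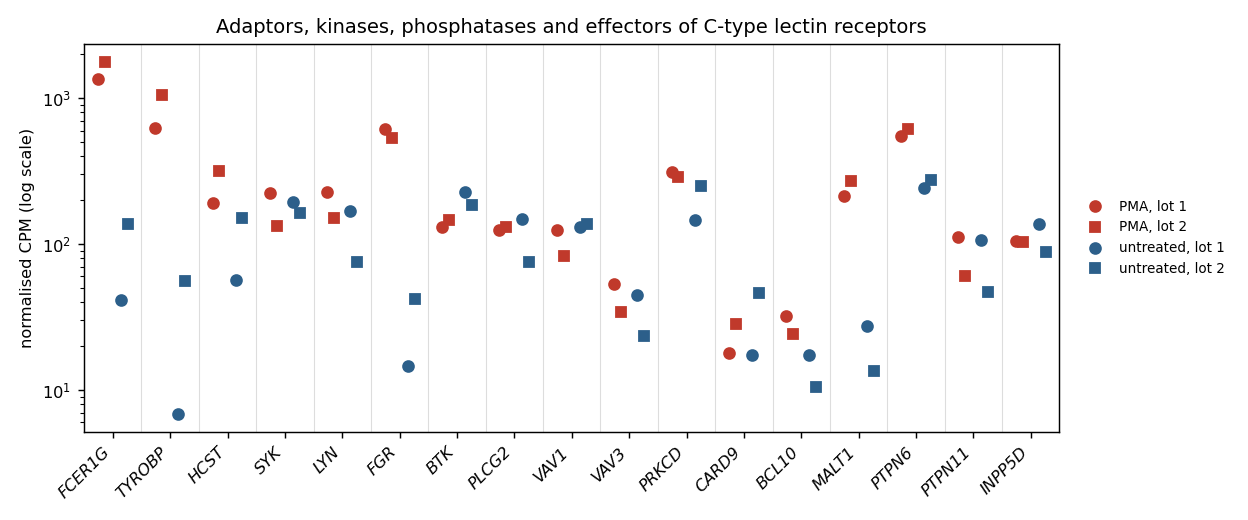
Normalised CPM (log axis) of 17 of the 19 signalling genes in each library, with PMA left and untreated right for each gene, circles for lot 1 and squares for lot 2. FCER1G, FGR and MALT1 rose, the groups of TYROBP do not overlap, and those of SYK and CARD9 do.

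CD209, MRC1 and CLEC10A are known to respond to interleukin 4 in human monocytes. Here CD209 and CLEC10A rose, while MRC1 was listed at 0 in all 4 libraries. Of 23 other genes for the interleukin 4 receptor, its signalling and its targets, 20 were tested, 8 rose and 0 fell. Over all genes tested, 4.29% were called higher and 2.02% lower. The median log2 fold change of the 20 was 2.11, against 0.00 for all genes tested. The filter on low counts keeps genes that are high in a single group, so this median does not describe all 23. The receptor chains IL4R (2.17 ± 0.37, adjusted p = 0.0413) and IL13RA1 (3.57 ± 0.37, adjusted p = 0.0224) rose, as did the transcription factor STAT6 (2.05 ± 0.29, adjusted p = 0.0310). The targets IL1RN (7.37 ± 0.81), IL1R2, TGM2, ALOX15 and FCER2 also rose. Without regard to the test, 17 of the 23 were higher in both PMA libraries than in both untreated libraries, and 1, F13A1, was lower in both. The shares of all genes tested were 31% higher and 29.4% lower in this sense. F13A1 was at 2.39 and 0.800 CPM with PMA and 11.4 and 5.61 CPM untreated, and did not pass edgeR's test (adjusted p = 0.146). TGM2, a transglutaminase, was at 7.52 and 15.4 CPM with PMA and 0 untreated. The chemokine CCL17 and the receptor CD200R1 were listed at 0 in all 4 libraries, and CCL22 was at 2.88 and 18.4 CPM with PMA and 0.316 and 0.811 CPM untreated (adjusted p = 0.0947). IRF4 (adjusted p = 0.717) and PPARG (adjusted p = 0.395) did not pass. Without PMA replicates 1 and 2 in turn, 4 of the 8 lost their call each time, namely FCER2 (0.285 and 0.143), IL4R (0.0806 and 0.233), STAT6 (0.146 and 0.162) and ALOX15 (0.103 and 0.144). In the same fits 1 other gene passed, which was CCL22 without PMA replicate 1 and FABP4 without PMA replicate 2, so that 5 of the 23 were called. Without untreated replicate 1, FCER2 was lost and 4 genes were gained, and 11 were called. IL4R was at 0.0527 without untreated replicate 2, and ALOX15 was at 0.0915 with the lot as a block. With DESeq2 the adjusted p was 4.29e-06 for IL4R, 1.48e-08 for STAT6 and 9.90e-05 for ALOX15. The log2 fold change of IL1RN was 8.33 without untreated replicate 2 and 6.73 without untreated replicate 1.

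CD209 and CLEC10A are also markers of dendritic cells. Of 11 other dendritic cell genes, 7 were at 0 in all 4 libraries, namely CD1A, CD1B, CD1E, CLEC9A, CLEC4C, CD207 and CCR7, and XCR1 alone was called higher, at 3.53 and 5.41 CPM with PMA and 0 untreated (adjusted p = 0.0361). Its call was lost without PMA replicate 2 (0.0675) and with the lot as a block (0.0656), while DESeq2 gave 4.12e-07. The summed level of the list was 11.3 to 20.6 CPM with PMA and 17.3 to 54.8 CPM untreated, and most of it was BATF3, a transcription factor, at 7.40 and 15.2 CPM with PMA and 15.5 and 54.8 CPM untreated (adjusted p = 0.250). All 6 T cell markers and all 3 erythroid markers were at 0 in every library, and 6 of 7 fibroblast and epithelial markers were. Summed B cell markers were at 11.3 to 13.5 CPM with PMA and 17.6 to 26.8 CPM untreated, and natural killer markers at 10.0 to 22.2 CPM with PMA and 1.25 to 2.55 CPM untreated. With PMA, most of the natural killer sum was NCAM1, at 8.25 and 16.1 CPM with PMA and 1.11 and 0.0927 CPM untreated (adjusted p = 0.105), and PRF1 was at 0 in every library. GNLY was at 1.23 and 3.94 CPM with PMA and 0 untreated, and did not pass edgeR's test (adjusted p = 0.0583). In the authors' deposited table GNLY was called, with a q-value of 0.00372. Of 5 endothelial markers, CDH5, TEK and KDR were at 0 in every library, and VWF was called higher, at 153 and 496 CPM with PMA and 0 untreated, while the summed endothelial level was 153 to 498 CPM with PMA and 1.95 to 3.64 CPM untreated. Summed neutrophil markers were at 88.4 to 94.2 CPM with PMA and 111 to 114 CPM untreated. The part of these genes in the receptor results was not tested.

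Of the 5 genes whose levels over the 4 libraries lay nearest to those of CD209, by Euclidean distance of log2(CPM + 0.5), the first 4 were SLC26A11, VSIG4, OCSTAMP and EGR2, at distances of 0.531 to 0.856. VSIG4, a complement receptor of tissue macrophages, was at 204 and 186 CPM with PMA and 0 untreated, and SLC26A11, an anion transporter, at 186 and 126 CPM with PMA and 0 untreated. This likeness rests on 4 libraries, and CD209 had 2 counts in each untreated library.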

How the data were processed

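Per the labels' protocols, poly(A) RNA of 4 U937 samples, 2 with PMA and 2 untreated, was made into barcoded Ion Torrent libraries. HISAT2 2.1.0 and StringTie 2.1.1 are named, without roles, in the submitters' processing notes. Build, annotation and strand use: not given in the sources used here. Per gene, the authors deposited estimated counts, all whole numbers, so rounding changed none. Another table deposited by the authors gives a signal, the count times 1 factor per library, with the authors' log2 ratio, p-value and q-value, by a test the sources used here do not name.

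Counts were tested with edgeR 4.0.16 in R 4.3.3 (TMM factors, filterByExpr by group, quasi-likelihood test, Benjamini-Hochberg over 16451 genes, threshold 0.05). The same fit was run on simulated counts, which varied less between libraries than these data, so that run does not give the error rate here. Alternatives were RLE and upper-quartile factors, no filter, 5 CPM in 2 libraries, DESeq2 1.42.0, a threshold of 0.01, the lot as a block and leaving out each library. The lot number in the labels pairs the libraries, and deviations of same-lot libraries from their group means correlated at 0.216 across genes. Total counts were 35739833 to 54915928. Intervals and floors cover counting error only.

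The receptors and lists were chosen with earlier results of these data known. The rule for named genes took all 10 receptors. It added list genes past the threshold, a few abundant or fixed members of each list, and the 5 genes nearest to the receptor with the smallest p. Genes of the chromosomal clusters, F13A1 and CD200R1 were added after the values had been seen. Some results the rule names are given only as ranges or counts, and some are not reported here.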

Additional observations from a re-analysis of the deposited data

How the results depend on the processing

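Of 69 alternative values of the 7 tested receptors, 62 kept their direction and side of the threshold, 7 passed it where the reported value did not (CLEC2B in 5 and CLEC4E in 2) and 0 changed direction. The number of receptors called higher was 4 or, with CLEC4E, 5 (DESeq2 and without untreated replicate 1), except at a threshold of 0.01, where it was 0. At 0.01, edgeR called 0 genes in either direction over all genes and in every list, since the smallest adjusted p was 0.0148, while 4445 genes had an unadjusted p under 0.05. The number called lower was 1 (CLEC2B), against 0, with upper-quartile factors, 5 CPM in 2 libraries and DESeq2, and 0 to 1 when a library was left out. At 5 CPM in 2 libraries CLEC4E was not tested.

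Over all genes, 705 rose and 332 fell. DESeq2 gave 2127 and 1684, the filter of 5 CPM gave 721 lower, and leaving out a library gave 424 to 1830 higher and 79 to 1085 lower. The other lectin genes called lower were 2 with DESeq2 and with 5 CPM, and 0 to 2 when a library was left out. DESeq2 called 5 signalling genes higher, 15 interleukin 4 genes higher and 1 lower, and 11 cell type markers higher. Upper-quartile factors gave 5 interleukin 4 genes higher and shifted all genes, whose median log2 fold change became −0.17. Leaving out a library gave 5 to 11 interleukin 4 genes higher, 7 to 11 cell type markers higher and 0 to 2 lower. Beyond the loss of samples or genes, why these counts moved was not tested.

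Among the named genes that were followed through the alternatives and did not pass, the log2 fold changes of 5 turned sign. Not all named genes were followed. LYZ, CD33 and CEBPA, whose lots moved in opposite directions, were among those left out. SYK was at −0.0354 with the lot as a block, −0.159 with upper-quartile factors, −0.00736 without a filter and −0.0519 at 5 CPM. When a library was left out, the log2 fold change ranged from −0.479 to 0.349 for SYK, −0.0517 to 0.704 for MRC2, −1.58 to 0.0270 for KLRF1, −0.212 to 0.567 for CD69 and −1.05 to 0.415 for CARD9.

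With the lot as a replicate block, 4 receptors rose and 0 fell, and no receptor changed its call. FCER2 (0.0702), ALOX15 (0.0915) and XCR1 (0.0656) lost theirs and TYROBP (0.0425) gained one. At these depths, a count of 0, as for MRC1 and CLEC4A, allows a level of up to 0.0475 to 0.0921 CPM by counting error only.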
